A study of Mus musculus with 12 samples.

Results

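The cytosolic ribosomal protein genes were followed in the transcriptome of mouse bone marrow monocytes. They were taken by gene symbol: every row named Rpl or Rps followed by a number, with Rplp0, Rplp1, Rplp2 and Rpsa, leaving out rows named as pseudogenes (-ps) and the Rps6k kinases. The rule found 93 genes among 54532 rows. Of these, 31 encode small subunit proteins, 43 large subunit proteins and 3 the ribosomal stalk, and these 77 are called core members here. A further 15 are paralogs or retrogenes of core members, and 1, Rps19bp1, encodes a binding partner of a ribosomal protein and no ribosomal protein.

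Monocytes carrying CD11b and a high level of Ly6C were sorted from bone marrow and cultured without LPS or with LPS, the bacterial lipopolysaccharide that activates TLR4, for 4 h. Mice were given succinate at 300 mM over 7 days or were untreated controls. The groups were unstimulated control, unstimulated succinate, LPS control and LPS succinate, with 3 libraries each. The labels give no strain, age, sex or route, and do not say whether replicates came from separate mice, so p-values measure the spread between these libraries, which may be technical. Total counts per library ranged from 15975882 to 18306747. All 10 of the listed Ly6C-high monocyte markers passed the filter on low counts, with a summed level of 4970 to 8640 CPM (a level per library: counts scaled to a common library size and corrected for library composition). Markers of other cells were also present, no list was wholly at 0, and the sums do not by themselves mark the cells as labelled. The summed level of 9 neutrophil markers was 6330 to 13500 CPM without LPS and 13700 to 18900 CPM with LPS. These 9 did not all move the same way. With LPS in control mice the mean of Ngp went from 3250 to 5140 CPM. The means of Cxcr2 and Mmp8 went down there, from 26.1 to 10.3 and from 147 to 54.3 CPM. In succinate mice Ngp went from 2720 to 4690, Cxcr2 from 26 to 12.7 and Mmp8 from 111 to 44.6 CPM. The sum of 8 myeloid progenitor markers, Elane and Mpo among them, was 2190 to 4850 CPM, and that of 8 B cell markers was 74.1 to 230 CPM.

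A ribosome is built from ribosomal RNA and one copy of nearly every core protein, and the mRNAs for these proteins are among the most abundant in growing cells. Most of them begin with a terminal oligopyrimidine (TOP) tract, a C followed by an unbroken run of C and T at the first transcribed bases. Through that tract mTORC1 and the RNA-binding protein Larp1 set how much of this mRNA is translated, so a cell can change the output of the whole family without changing its mRNA level. The counts analysed here measure mRNA level only.

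Start-site windows were searched for the tract. Windows of 10 bases before and 20 after the annotated start were read from a set of RefSeq start-site sequences (build GRCm38.p6). The set at hand, which is not all of RefSeq, held 68 of the 93 members and 57 of the 77 core members. The motif searched was a C that begins an unbroken run of at least 7 C or T, within 10 bases of the start, on the strand of the gene. It was found in 27 of 67 core windows (40.3%) and in 3869 of 32851 windows of all genes (11.8%). The windows of 6 members that hold the run are shown first, with the run in capitals, as examples of the tract, which most core windows did not hold by this rule. Rpl36a and Rps4x are shown with them because results below turn on these genes, and their windows do not hold the run.
Rps6: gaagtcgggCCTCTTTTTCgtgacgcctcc
Rpl28: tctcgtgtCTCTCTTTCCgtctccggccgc
Rpl35: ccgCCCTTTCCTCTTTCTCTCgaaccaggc
Rps18: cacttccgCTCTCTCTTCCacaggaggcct
Rpl38: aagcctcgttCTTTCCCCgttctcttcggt
Rps27: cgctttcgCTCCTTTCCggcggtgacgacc
Rpl36a: cccaggcaccgcctataaacttccgttgcg
Rps4x: gctgggcggagcaacccaggctccagcgcg
The windows lie at chr4:86857348-86857377 on the minus strand for Rps6, at chr7:4792955-4792984 on the plus strand for Rpl28, at chr2:39005112-39005141 on the minus strand for Rpl35 and at chr17:33955646-33955675 on the minus strand for Rps18. The Rpl38 window is chr11:114668570-114668599 on the plus strand, and that of Rps27 is chr3:90213629-90213658 on the minus strand. Rpl36a and Rps4x are both on the X chromosome, at chrX:134585644-134585673 on the plus strand and chrX:102189372-102189401 on the minus strand. A match is a description of the letters and was not tested as a site, and no match says only that these letters are not in this window.

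Ribosomal protein genes took a few percent of each library. Their summed share of counts was 3.75%, 3.04% and 3.5% in the unstimulated control libraries (replicates 1 to 3) and 4.05%, 2.89% and 3.66% in the unstimulated succinate libraries. It was 3.28%, 3.30% and 3.19% in the LPS control libraries and 4.07%, 3.87% and 4.04% in the LPS succinate libraries. The LPS succinate libraries were all above the LPS control libraries, while both unstimulated groups spanned a range that took in the LPS control values. Group means were 3.43% ± 0.36 (SD, n = 3), 3.53% ± 0.59, 3.26% ± 0.06 and 3.99% ± 0.11 in the same order. Since the members were chosen with results of these data known, no test is given for this sum. In bulk libraries such a share cannot separate fewer cells of a type from less RNA per cell.

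**Figure D1:**
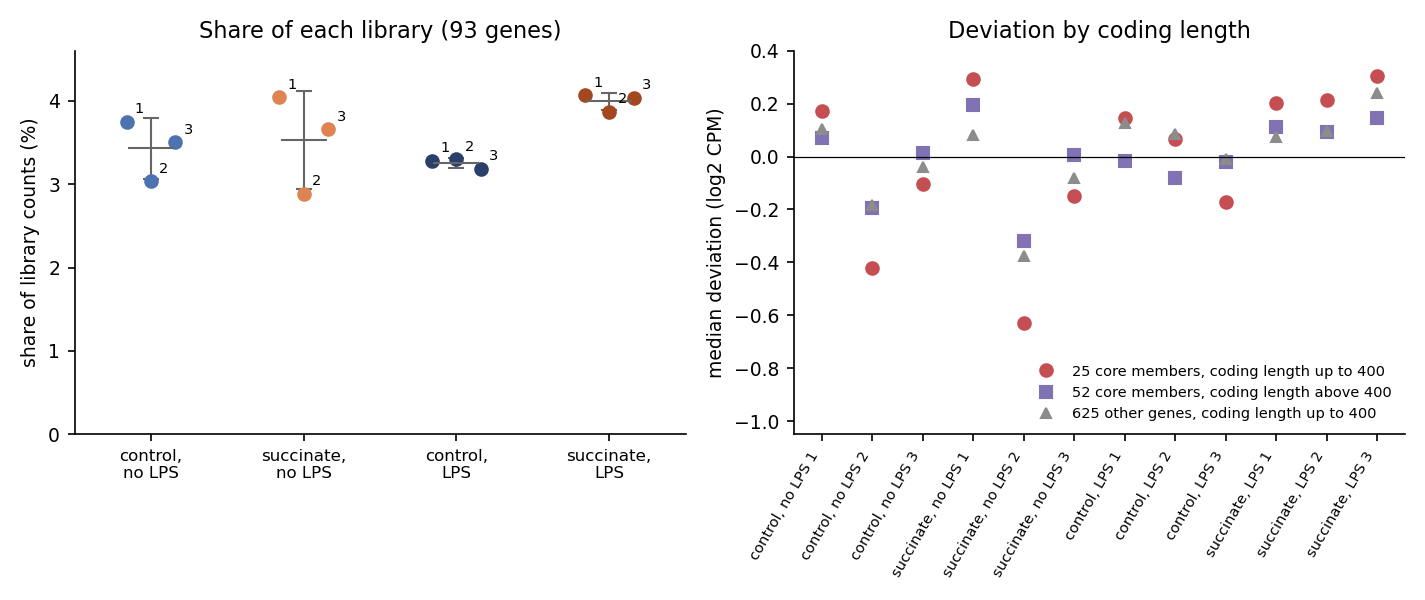
Left, the share of counts (%) in the 93 ribosomal protein genes in each of 12 libraries (points, numbered by replicate), with the group mean and SD (n = 3): the LPS succinate libraries lie between 3.87% and 4.07%, and the LPS control libraries between 3.19% and 3.30%. Right, the median deviation from each gene's own mean (log2 CPM) for 25 short and 52 longer core members and for 625 other genes with a short coding sequence, by library; the lowest points are those of unstimulated succinate replicate 2.

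Levels were compared between genes only per kilobase of coding sequence. By this measure the highest core member was Rpl41, whose coding sequence is only 75 bases long and encodes the smallest ribosomal protein, at 6656 CPM per kilobase as a mean of the 12 libraries. Rplp0, the stalk protein that anchors the others, followed at 1772 and Rps9, a small subunit protein near the entry of the mRNA channel, at 1707 CPM per kilobase. The place of Rpl41 rests on the length used: its annotated transcript has 544 bases, and per kilobase of transcript it was at 918 CPM, rank 13 of 77, below Rps9 at 1323 and Rplp0 at 1241. Rps10, Rpl24 and Rpl13a, described next, were the 3 lowest on both scales. On the scale of CPM, Rpl41 was at 565, 384 and 486 in the unstimulated control libraries, 609, 334 and 450 in the unstimulated succinate libraries, 484, 485 and 426 in the LPS control libraries and 552, 599.9 and 616 in the LPS succinate libraries. Its lowest value came from unstimulated succinate replicate 2. Rps9 was at 1023, 848 and 979 CPM, then 1135, 772 and 981, then 1015, 1001 and 977, and then 1046, 1055 and 1088 CPM in the same groups, so its LPS succinate libraries stood within the range of the unstimulated ones.

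At the other end, 3 core members were listed far below the rest: Rps10 at 6.13, Rpl24 at 8.53 and Rpl13a at 30.7 CPM per kilobase, against 175 to 6656 for the other 74. Rps10 and Rpl24 are small and large subunit proteins, and Rpl13a is a large subunit protein also known from translational silencing in interferon-treated monocytic cells. Most coding bases of all 3 lie inside exons of another annotated gene: 92.1% for Rps10 (inside RPS10-NUDT3), 83.4% for Rpl24 (inside Gm28037) and 97.5% for Rpl13a (inside Gm45713). No other core member reached 80%. The share for the paralog Rpl36al, at 3.95 CPM per kilobase, was 95.3% (inside Gm49383). No source used here gives how the counting treated reads that fall in 2 genes, so the level of these 4 genes is uncertain, and the part of the overlap in it was not tested. The overlap was looked up after the low values had been seen.

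**Figure D2:**
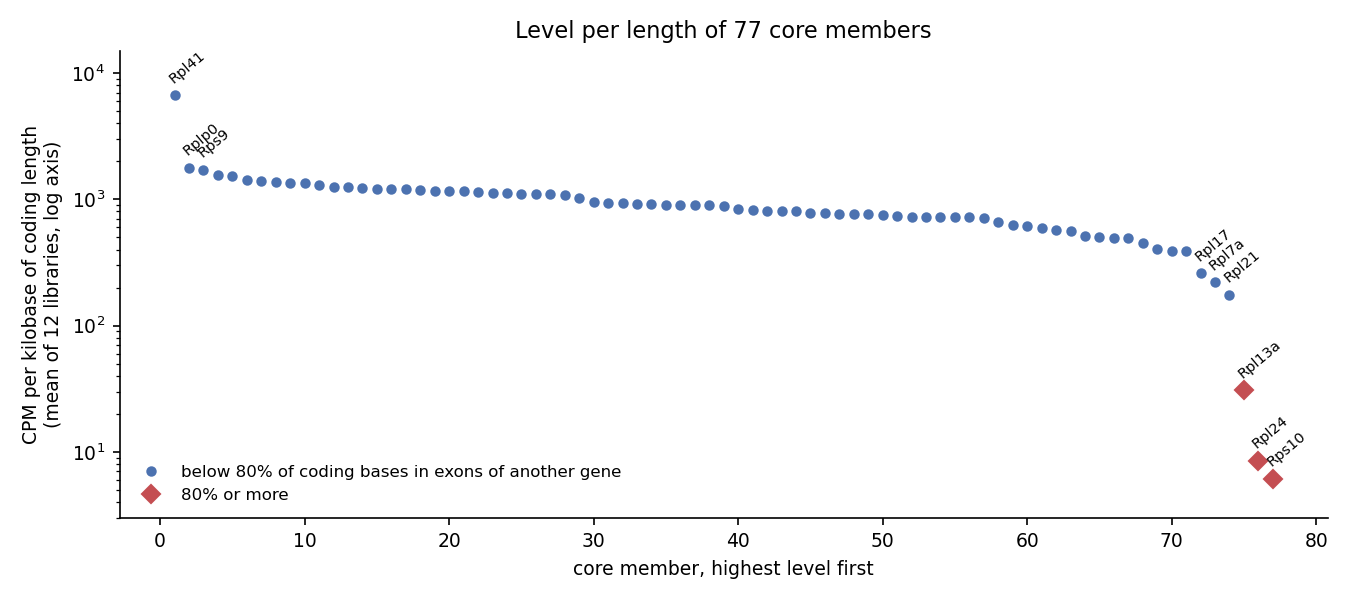
CPM per kilobase of coding sequence (mean of 12 libraries, log axis) of the 77 core members, ordered from highest to lowest. The 3 members with at least 80% of their coding bases in exons of another gene (diamonds) are the 3 lowest, between 6.13 and 30.7, while the other 74 lie between 175 and 6656.

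Copies of these genes elsewhere in the genome limit how far single members can be told apart. Of the 77 core members, 29 share every stretch of 50 coding bases with another annotated gene, and the median share was 93%. The files hold 298 rows named as ribosomal protein pseudogenes. In 2 of the 61 members with such rows the pseudogene rows held more counts than the member itself. Rps10 had 623 counts over all libraries and its 4 pseudogene rows 24753, of which 23370 were in Rps10-ps2. Rpl17 had 29335 counts and its 11 rows 73665, of which 42890 were in Rpl17-ps10. For Rpl21 the sums were nearly level, at 17184 counts in the gene and 16455 in 15 rows. For the median member the pseudogene rows held 0.0085 of the member's own count.

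Few members were called for LPS in monocytes of control mice, and their values lay close to 0. With edgeR's quasi-likelihood test and Benjamini-Hochberg adjustment over the 14324 genes tested, 1 of 88 tested members passed an adjusted p of 0.05, and it rose, in a comparison in which 30.1% of all genes passed (15.3% up and 14.8% down). The member was Rps4l, a retrogene copy of Rps4x. The median log2 fold change of the members was 0.04, against -0.004 for all genes tested, and 55 of 88 were above 0 (49.7% of all genes). At an unadjusted p below 0.05 there were 2 members (2.27%, against 39.2% of all genes). The tools agreed on the count, with 1 member by DESeq2 (beside 31.9% of all genes) and 1 by limma-voom (beside 29.5%). Before and after LPS, 1 member had groups that did not overlap and it was higher after LPS, while 22.3% of all genes were higher and 23.2% lower without overlap.

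Monocytes of succinate-treated mice gave 3 members past the same threshold, all higher with LPS: Rps4l, Rps27a and Rpl36a. In this comparison 30.2% of all genes passed (14.1% up and 16.2% down). The members' median log2 fold change was 0.21, against -0.02 for all genes, and 71 of 88 were above 0 (48.4% of all genes). At an unadjusted p below 0.05 there were 12 members (13.6%, against 40.02% of all genes). By role, 26 of 31 small subunit genes and 35 of 46 large subunit and stalk genes were above 0, with medians of 0.28 and 0.18. Without overlap between groups, 17 members were higher (19.9% of all genes) and 2, Rps10 and Rps19bp1, were lower (21.5% of all genes). The count of 3 (3.4% of the members) rested on single libraries. It was 33 without unstimulated succinate replicate 1, which is 37.5% of the members beside 29.6% of all genes in that fit. It was 6 (6.8%, beside 27.5% of all genes) without unstimulated control replicate 2, 5 (5.7%, beside 29.4%) without LPS control replicate 3, and 1 (1.1%, beside 22.9% to 26.6%) without any 1 of unstimulated succinate replicates 2 or 3 or LPS succinate replicates 2 or 3. In those 4 fits the 1 member was Rps4l. DESeq2 called 6 members (6.8%, beside 32.1% of all genes) and limma-voom 4 (4.5%, beside 30.5%).

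Rps4l was the only member called in both LPS comparisons. It was at 8.27, 6.13 and 9.42 CPM in the unstimulated control libraries and at 11.8, 15.97 and 12.7 CPM in the LPS control libraries. In succinate mice it was at 7.58, 5.72 and 8.02 CPM without LPS and at 11.4, 17.1 and 14.2 CPM with LPS. All 6 LPS libraries lay above all 6 unstimulated libraries. The log2 fold change was 0.77 (SE 0.21, adjusted p = 0.0128) in control mice and 1.002 (SE 0.21, adjusted p = 0.00214) in succinate mice. In control mice the call was lost without unstimulated control replicate 2 (adjusted p = 0.0608) and without LPS control replicate 2 (adjusted p = 0.059). Among the 7 libraries that are not set apart as described below, which leaves 1 unstimulated library per mouse group, its log2 fold changes were close to these, at 0.78 (adjusted p = 0.153) in control and 0.94 (adjusted p = 0.0763) in succinate mice. The difference between the LPS effects had an adjusted p of 1.

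The parent gene, Rps4x, which encodes a small subunit protein from the X chromosome, had far higher levels and no call. It was at 681, 752 and 763 CPM in unstimulated control libraries, 647, 602 and 797 in LPS control libraries, 766, 681 and 848 in unstimulated succinate libraries and 752, 717 and 756 in LPS succinate libraries. Its log2 fold changes with LPS were -0.10 (SE 0.12, adjusted p = 0.587) and -0.05 (SE 0.12, adjusted p = 0.821). The annotation (GENCODE M21) lists Rps4l as a transcribed processed pseudogene at chr6:148354656-148355598 on the plus strand. Its annotated transcript nevertheless holds an open reading frame of 262 codons, and it matches the coding sequence of Rps4x at 628 of 789 bases (79.6%) with 161 substitutions and no gap. The longest identical run is 35 bases. Another annotated row, Rps4l-ps, shares 18.0% of the 50-base stretches of Rps4l and held 0 counts. The first 180 bases of each are shown, with the differing bases in capitals.
Rps4x: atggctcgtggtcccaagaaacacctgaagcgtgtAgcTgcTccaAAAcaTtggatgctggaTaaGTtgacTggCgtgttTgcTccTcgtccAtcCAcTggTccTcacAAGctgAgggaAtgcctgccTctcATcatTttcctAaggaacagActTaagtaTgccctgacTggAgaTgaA
Rps4l: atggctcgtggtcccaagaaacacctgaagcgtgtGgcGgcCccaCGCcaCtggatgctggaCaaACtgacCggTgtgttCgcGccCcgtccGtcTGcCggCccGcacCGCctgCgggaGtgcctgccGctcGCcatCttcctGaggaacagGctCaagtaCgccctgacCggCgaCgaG

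Rps27a encodes ubiquitin fused to a small subunit protein, so its mRNA serves both the ribosome and the ubiquitin pool. It was at 187, 104 and 155 CPM in the unstimulated succinate libraries and at 198, 320 and 383 CPM in the LPS succinate libraries. These groups did not overlap, but LPS succinate replicate 1 stood only just above unstimulated succinate replicate 1. The log2 fold change was 1.02 (SE 0.32, adjusted p = 0.0246). In control mice Rps27a was at 218, 177 and 146 CPM without LPS and at 393, 350 and 151 CPM with LPS, where replicate 3 fell among the unstimulated libraries. Its log2 fold change there was 0.72 (SE 0.32, adjusted p = 0.102), and 1.07 (adjusted p = 0.00744) without that library. In succinate mice the call was lost without any 1 of unstimulated replicates 2 and 3 (adjusted p = 0.108 and 0.0534) or LPS replicates 2 and 3 (adjusted p = 0.0666 and 0.0999). Rps27a shares all of its 50-base stretches with other genes, among them Gm8430 (88.1%).

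Rpl36a, a large subunit protein near the exit site for spent tRNA, was at 151, 59.2 and 84.0 CPM in the unstimulated succinate libraries and at 167, 171 and 191 CPM in the LPS succinate libraries. The 3 LPS libraries were all above the 3 unstimulated ones, although replicate 1 of the latter came close. The log2 fold change was 0.85 (SE 0.29, adjusted p = 0.0403), and the call was lost in DESeq2 (adjusted p = 0.0603) and without any 1 of the LPS succinate replicates or unstimulated succinate replicates 2 and 3. In control mice the gene was at 136, 70.6 and 91.4 CPM without LPS and 145, 134 and 88.5 CPM with LPS, with overlapping groups (log2 fold change 0.30, SE 0.29, adjusted p = 0.486).

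**Figure D3:**
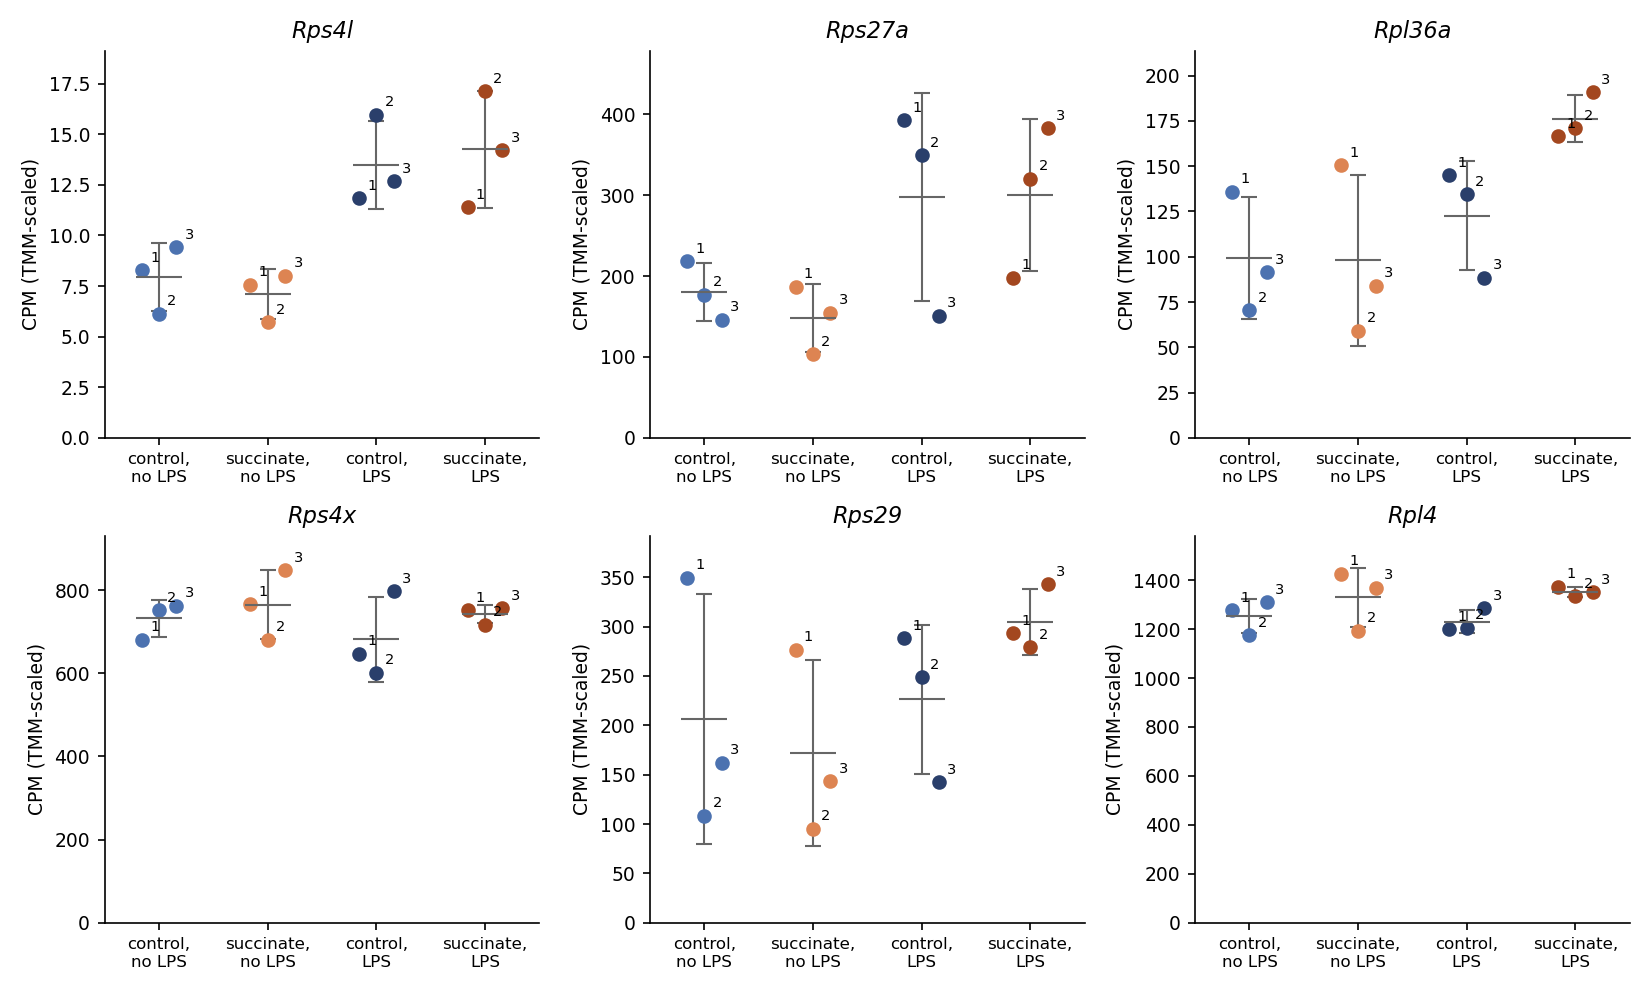
CPM in each library (points, numbered by replicate; bars are mean and SD, n = 3) for the 3 called members in the top row and for Rps4x, Rps29 and Rpl4 in the bottom row; each axis starts at 0. All 6 LPS libraries of Rps4l lie above its 6 unstimulated libraries, while Rps29 ranges from 95.2 to 349 CPM within the unstimulated libraries and Rpl4 from 1176 to 1426.

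Stalk genes recruit elongation factors to the ribosome, and none was called in any comparison. Rplp0 was at 1642, 1570 and 1779 CPM in unstimulated control, 1875, 1515 and 1776 in unstimulated succinate, 1614, 1586 and 1724 in LPS control and 1661, 1705 and 1774 CPM in LPS succinate libraries. Its log2 fold changes in the 4 pairwise comparisons lay between -0.02 and 0.06. Rplp1 was at 539, 449 and 503, then 579, 413 and 543, then 499, 497 and 506, and then 587, 587 and 670.2 CPM in the same groups. The LPS succinate libraries were the highest of the LPS libraries, and the log2 fold change between succinate and control with LPS was 0.30 (SE 0.13, adjusted p = 0.378). Rplp2 was at 417, 296 and 361, then 448, 278 and 356, then 408, 395 and 335, and then 412, 419 and 453 CPM. Rpsa, the small subunit protein that also occurs as a laminin receptor precursor, was at 1139, 1269 and 1347, then 1207, 1222 and 1464, then 1002, 1088 and 1368, and then 1297, 1267 and 1309 CPM. Its groups overlapped in all 4 pairwise comparisons.

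Succinate without LPS gave 0 called members and 0 called genes of 14324 (0%) in edgeR. At an unadjusted p below 0.05 there were 0 of 88 members, against 3.73% of all genes. DESeq2 and limma-voom called 0 members, beside 0.01% and 0% of all genes. The members' median log2 fold change was 0.004, against 0.006 for all genes, and 47 of 88 were above 0 (51.3% of all genes). No member had groups without overlap, against 3.65% of all genes higher and 4.27% lower. The 3 highest log2 fold changes were 0.53 for Rpl36al (SE 0.44), 0.30 for Rps10 and 0.22 for Rpl7a, and the 3 lowest were -0.28 for Rps27a, -0.27 for Rps29 and -0.26 for Rpl21. The smallest adjusted p of any member was 0.958. The median moved to 0.15 without unstimulated succinate replicate 2 and to -0.15 without unstimulated succinate replicate 1, so its sign depended on single libraries.

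Succinate with LPS also gave 0 called members in edgeR, where 0.0628% of all genes were called (9 genes, all lower). The values of the members nevertheless lay to one side: 85 of 88 log2 fold changes were above 0 (47.8% of all genes), with a median of 0.17 against -0.01 for all genes. The groups did not overlap for 42 members, all higher in LPS succinate libraries, against 6.95% of all genes higher and 10.2% lower. At an unadjusted p below 0.05 there were 6 members (6.82%, against 11.7% of all genes), 5 of them higher. DESeq2 and limma-voom called 0 members, beside 337 of 14324 genes in DESeq2 and 34 of 14324 (0.24%) in limma-voom. All 31 small subunit genes and 44 of 46 large subunit and stalk genes were above 0, the exceptions being Rpl24 and Rpl30. The median of the members stayed between 0.16 and 0.21 without any 1 library. With library size alone as the scaling, which moved the median of all genes to 0.11, it was 0.29. The 88 members share the same 6 libraries, so their number does not add replication.

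Among these members, Rpl12, which lies at the base of the stalk, was at 301, 314 and 351 CPM in LPS control and 412, 383 and 417 CPM in LPS succinate libraries. Its log2 fold change of 0.33 (SE 0.12, adjusted p = 0.278) had the smallest p of the members. Rpl14, a large subunit protein, was at 315, 325 and 299.6 CPM and at 389, 384 and 428 CPM in these groups (log2 fold change 0.35, SE 0.13, adjusted p = 0.292). Rpl10a, which neighbours the tRNA exit, was at 371, 383 and 406 CPM and at 461, 459 and 458 CPM (0.25, SE 0.10, adjusted p = 0.357). In each of these 3 genes the lowest LPS succinate library was above the highest LPS control library, and none passed the adjusted threshold. Rpl3, at the peptidyl transferase centre, was at 581, 607 and 651 CPM and at 728, 709.7 and 718 CPM (0.23, SE 0.10, adjusted p = 0.41).

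The highest log2 fold changes in this comparison were 0.56 for Rpl36al (SE 0.43), 0.52 for Rpl36a (SE 0.29) and 0.43 for Rps29 (SE 0.40), with adjusted p of 0.672, 0.523 and 0.744. The lowest was -2.02 for Rpl24 (SE 0.82, adjusted p = 0.352), followed by -0.09 for Rps19bp1 and -0.01 for Rpl30. Rpl30, a large subunit protein, was at 252, 269 and 207 CPM in LPS control and 254, 243 and 227 CPM in LPS succinate libraries, with no separation. Its unstimulated libraries were at 254, 190.5 and 217 CPM in control and 282, 151 and 199 CPM in succinate mice. Rps19bp1, the partner protein that is no part of the ribosome, was at 22.5, 19.4 and 16.1, then 23.8, 19.2 and 18.7, then 19.0, 16.6 and 17.2, and then 17.5, 17.3 and 14.8 CPM across unstimulated control, unstimulated succinate, LPS control and LPS succinate libraries.

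Other shares and marker sums in these libraries stand beside the members' values. Mitochondrially encoded genes took 1.24% ± 0.02 of counts in LPS succinate libraries and 1.03% ± 0.04 in LPS control libraries (SD, n = 3), and the ribosomal protein pseudogene rows took 0.169% ± 0.001 and 0.141% ± 0.008. The scaling factors were 1.02 to 1.06 in LPS succinate and 0.936 to 0.965 in LPS control libraries. The neutrophil marker sum was 14900 to 17000 CPM in LPS succinate and 13700 to 18900 CPM in LPS control libraries, and that of 6 proliferation markers was 2000 to 2070 and 1570 to 2000 CPM. Myeloid progenitor markers summed to 3870 to 4660 and 2190 to 4850 CPM. Ly6C-high monocyte markers were lower in LPS succinate than in LPS control libraries without overlap, at 6550 to 7690 against 8060 to 8640 CPM. The sum of 7 T and NK cell markers, of which 2 passed the filter on low counts, was higher without overlap, at 32 to 43.1 against 19 to 31.4 CPM. Most of that sum was Nkg7, with means of 36.6 CPM in LPS succinate and 25.5 CPM in LPS control libraries. The next highest of the 7, Trac, was at 1.06 and 0.992 CPM. The part of these in the members' values was not tested.

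The interaction, the difference between the LPS effect in succinate mice and that in control mice, gave 0 called members and 0 called genes (0%) in edgeR. There were 0 members and 3.91% of all genes at an unadjusted p below 0.05. DESeq2 and limma-voom called 0 members, beside 0.02% and 0% of all genes. The median was 0.18 against -0.03 for all genes, and 85 of 88 members were above 0 (45.9% of all genes). The highest values were 0.70 for Rps29, 0.55 for Rps3a3 and 0.54 for Rpl36a, and the lowest were -2.08 for Rpl24, -0.18 for Rps19bp1 and -0.08 for Rpl7a, all with an adjusted p of 1. Without unstimulated succinate replicate 2 the median was 0.04, and without unstimulated succinate replicate 1 it was 0.33.

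The lowest and highest values of many members came from the same few libraries. Of the 77 core members, 57 had their lowest CPM in unstimulated succinate replicate 2, 30 had their highest in unstimulated succinate replicate 1 and 25 in LPS succinate replicate 3. The size of the spread over all libraries, which takes in differences between groups, went with coding length. Leaving out Rps10, Rpl24 and Rpl13a, the ratio of the highest to the lowest library had a median of 1.98 in the 25 core members with a coding sequence of up to 400 bases (from 1.59 in Rpl35 to 4.17 in Rps27) and 1.53 in the 49 longer ones (from 1.21 in Rpl4 to 3.79 in Rps27a). The split at 400 bases was chosen after the values had been seen.

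**Figure D4:**
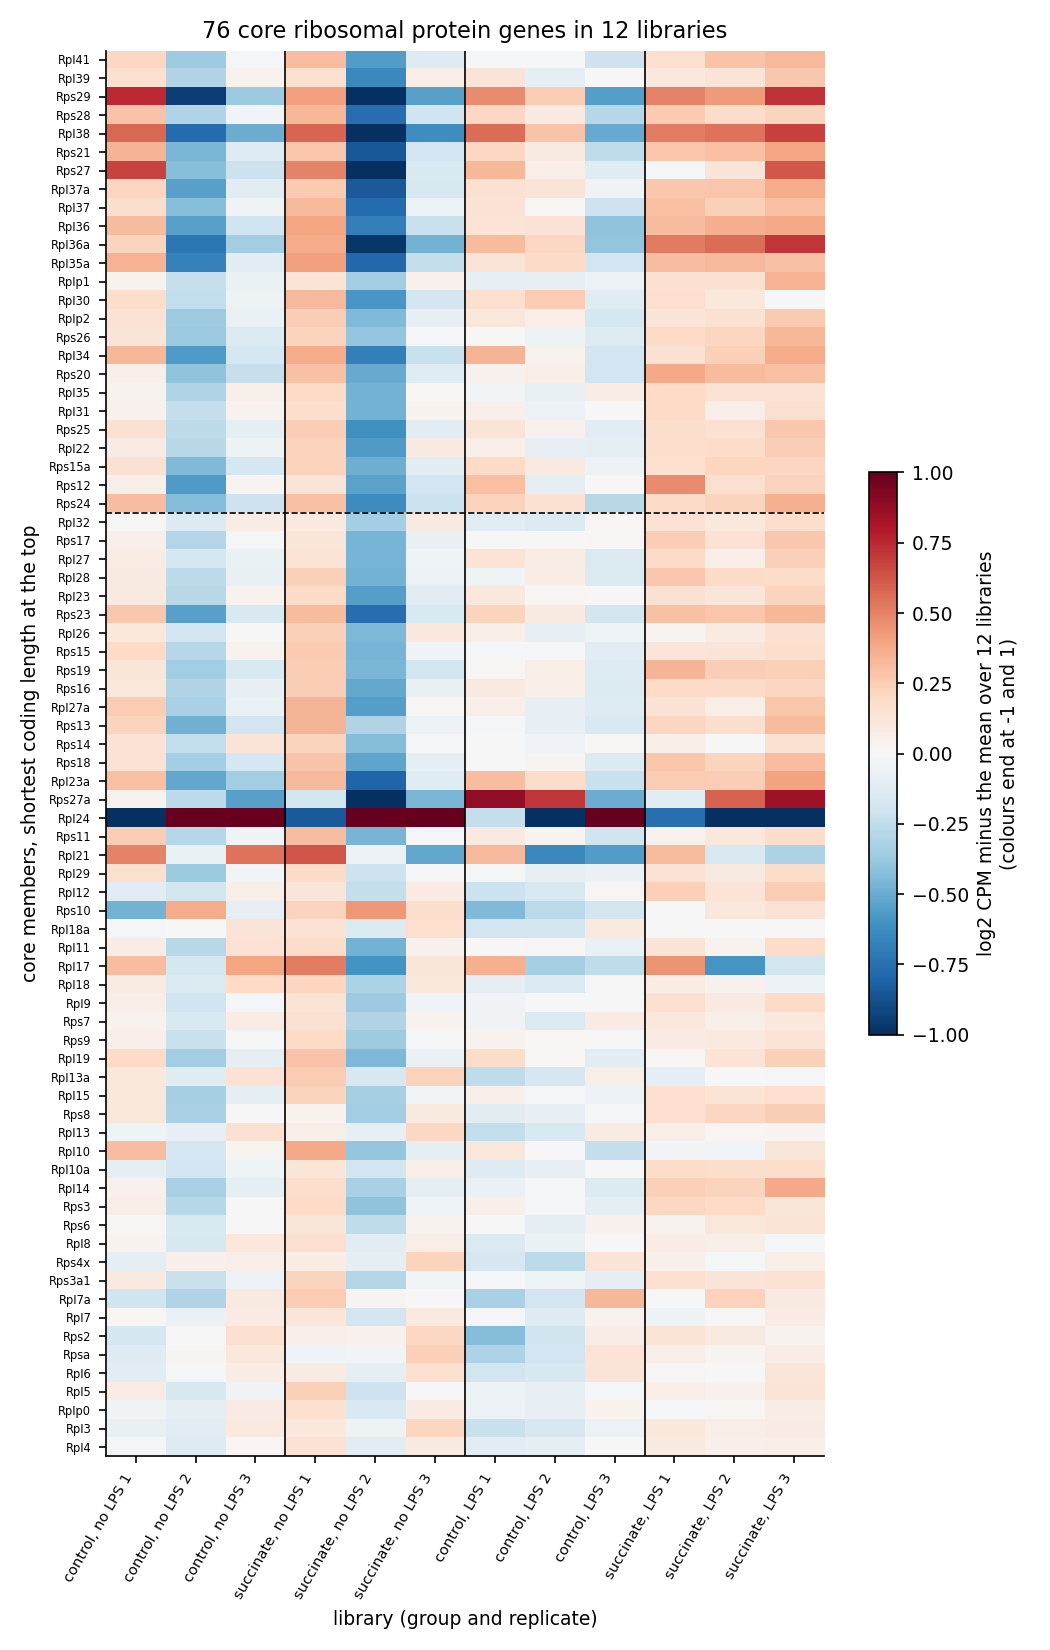
Log2 CPM of each of 76 core members minus its mean over the 12 libraries (colour, ending at -1 and 1), with libraries in columns by group and replicate and genes in rows from the shortest coding sequence at the top; the dashed line marks 400 bases. The darkest blue column is unstimulated succinate replicate 2, where 57 of all 77 members had their lowest value. Rpl24 is the row that runs most strongly against the others, and Rps10 had its highest value in that library.

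Rps29 and Rpl38 were among the short members with the widest spread. Rps29 encodes a small zinc-binding protein of the small subunit and was at 349, 109 and 162 CPM in unstimulated control, 277, 95.2 and 143 in unstimulated succinate, 288, 248.9 and 142 in LPS control and 293, 279 and 343 CPM in LPS succinate libraries. The low values came from 5 libraries: unstimulated control 2 and 3, unstimulated succinate 2 and 3, and LPS control 3. Rpl38, a small protein of the large subunit known for its part in the translation of Hox mRNAs, had the same low libraries, at 142, 55.7 and 67.6, then 142, 37.5 and 61.8, then 140, 116 and 67.2, and then 136, 138 and 153 CPM. Rpl4, among the longest members and part of the peptide exit tunnel, was at 1278, 1176 and 1309, then 1426, 1193 and 1369, then 1199, 1206 and 1285, and then 1373, 1333 and 1352 CPM, with little difference between these libraries.

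Other genes with a short coding sequence deviated to the same side as the short members in these libraries. In unstimulated succinate replicate 2 the median deviation from the gene's own mean was -0.63 (log2 CPM) for the 25 short core members and -0.32 for the 52 longer ones. In the same library it was -0.38 for 625 other genes with a coding sequence of up to 400 bases and 0.03 for 11124 longer genes. In unstimulated control replicate 2 the 4 values were -0.42, -0.19, -0.18 and 0.01, and in LPS succinate replicate 3 they were 0.30, 0.14, 0.24 and 0.01. The same low libraries were set apart by the mean log2 CPM of 4 genes (S100a4, Rpl10-ps3, Gm14303 and Rpl35a-ps2), at 3.35 to 4.34 in those 5 libraries and 0.96 to 1.62 in the other 7, which include all 3 LPS succinate libraries. Of the 4, 3 are copies of members and share reads with them or may do so: Rpl10-ps3 and Rpl35a-ps2 are ribosomal protein pseudogene rows, and Gm14303 holds every 50-base stretch of Rps29. The fourth, S100a4, encodes a calcium-binding protein and is no ribosomal gene. It was at 7.46 to 17 CPM in the 5 libraries and 0.788 to 2.83 CPM in the other 7. Since S100a4 was itself chosen because it split these libraries, its values are no separate evidence for the split.

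Fold changes of the core members followed coding length as well. Across the 77 core members, Spearman's rho between coding length and log2 fold change was -0.54 for LPS in control mice and -0.74 for LPS in succinate mice. It was 0.57 for succinate without LPS and -0.44 for succinate with LPS. Across 11749 other coding genes the values were -0.11, -0.19, 0.17 and -0.05. Pearson's correlation with log2 coding length was weaker, at -0.305, -0.411, 0.503 and -0.165 in the core members in the same order. In the other coding genes it was -0.081, -0.129, 0.089 and -0.044. These are descriptions across genes that share the same libraries, and genes are not independent replicates. For LPS in succinate mice the median was 0.37 in the 25 short members and 0.14 in the 52 longer ones. For succinate with LPS the medians were 0.22 and 0.14. For succinate without LPS they were -0.03 and 0.02.

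**Figure D5:**
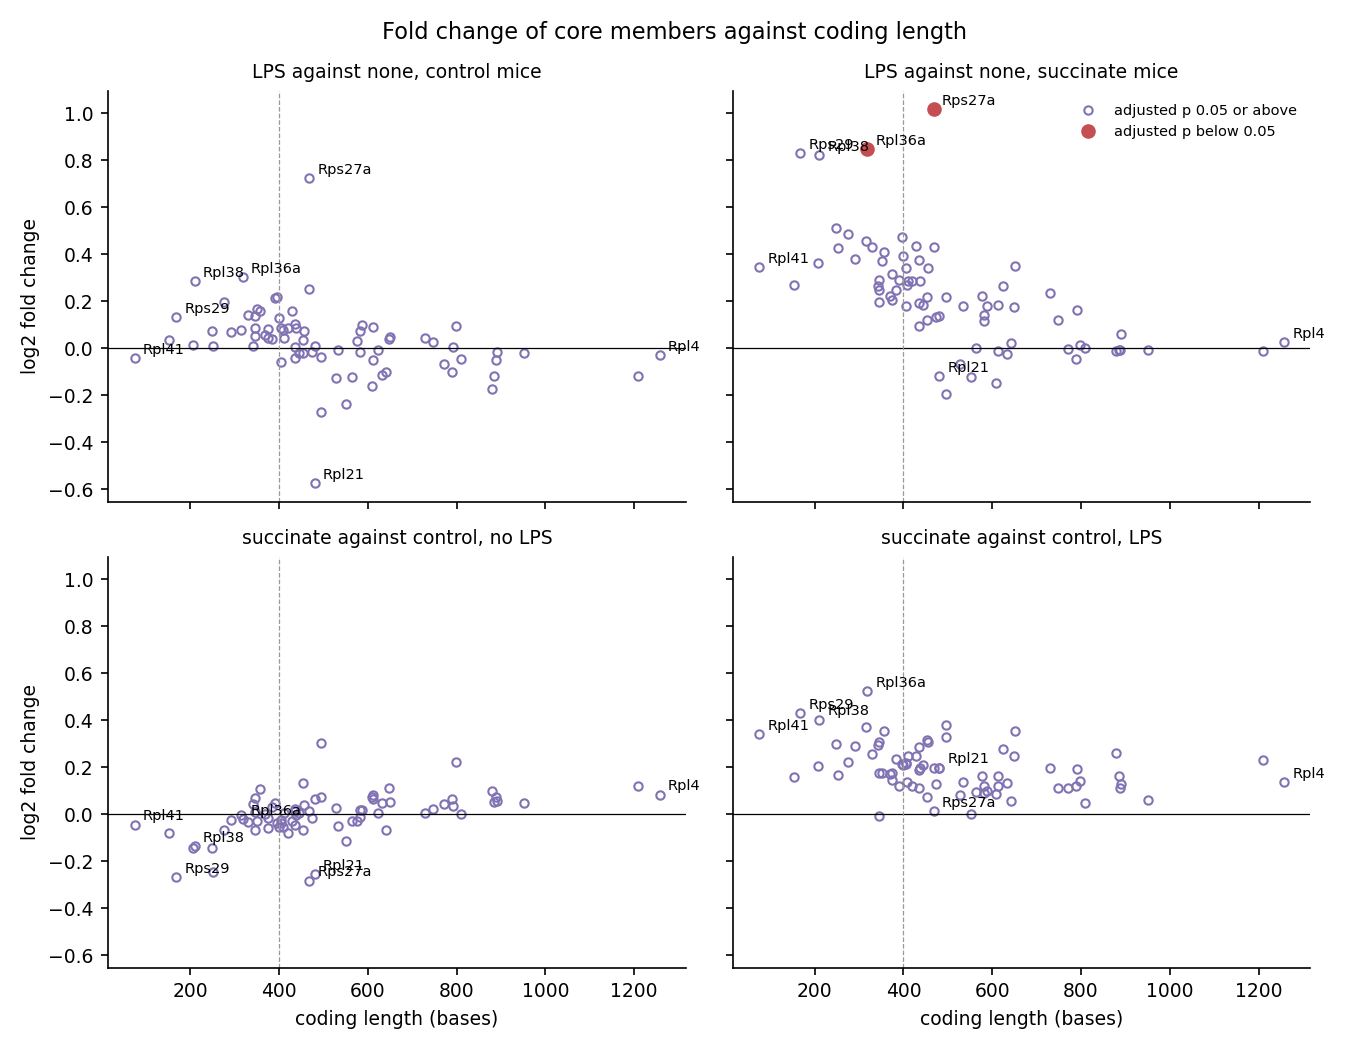
Log2 fold change of each core member except Rpl24 (points) against the length of its coding sequence in bases, in the 4 pairwise comparisons. Red points passed an adjusted p of 0.05 and the dashed line marks 400 bases. Rpl24 is left out of all 4 panels. For LPS in succinate mice the points fall with length (Spearman's rho -0.74 over all 77), and for succinate without LPS they rise with it (0.57).

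Values of the LPS comparison in succinate mice with this split taken into account are given as descriptions. The split is tied to LPS in these mice, since 2 of 3 unstimulated and 0 of 3 LPS succinate libraries are among the 5, so the covariate is estimated from few libraries, and it was drawn partly from copies of members. With the split as a covariate, the members' median was 0.06. In that fit 2 members passed (2.3%, beside 25.5% of all genes), 1 up and 1 down. Among the 7 other libraries alone, the median was -0.02. That choice leaves 1 unstimulated library per mouse group, which is assumed to vary like the rest. With trends over gene length and GC content removed in each library, the median was 0.10. Rps27a then had log2 fold changes of 0.54 (adjusted p = 0.184), 0.71 (adjusted p = 0.187) and 0.72 (adjusted p = 0.0531), and Rpl36a of 0.38 (adjusted p = 0.102), 0.25 (adjusted p = 0.274) and 0.65 (adjusted p = 0.0663). For succinate with LPS the members' medians were 0.09, 0.15 and 0.19 under these settings.

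Rpl24 ran against its family. It was at 0.868, 6.49 and 6.86 CPM in unstimulated control, 1.53, 5.72 and 7.62 in unstimulated succinate, 2.32, 1.36 and 11.7 in LPS control and 1.62, 1.07 and 1.076 CPM in LPS succinate libraries. The 5 high values were those of the 5 libraries in which Rps29 and Rpl38 were low. Its log2 fold change with LPS in succinate mice was -1.97 (SE 0.82, adjusted p = 0.0847), and 0.05 with the 5 libraries set apart by a covariate. All of its 50-base stretches occur in other genes, among them Gm9385 (88.2%), which had 1061 counts.

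Rps10 was at 2.14, 3.85 and 2.81, then 3.47, 4.03 and 3.36, then 2.2, 2.47 and 2.63, and then 2.98, 3.21 and 3.28 CPM in the order unstimulated control, unstimulated succinate, LPS control and LPS succinate. With its pseudogene rows added, the sign of its LPS log2 fold changes turned, from -0.27 to 0.16 in control mice and from -0.20 to 0.23 in succinate mice. Rpl13a was at 19.96, 17.1 and 20.5, then 22.2, 16.6 and 21.8, then 15.6, 16.5 and 19.4, and then 17.5, 18.7 and 18.5 CPM. Rpl21 was at 113, 76.6 and 117, then 124, 77.1 and 55.9, then 100.3, 51.2 and 54.4, and then 99.8, 72.3 and 64.4 CPM, and had the lowest log2 fold change with LPS in control mice (-0.57, SE 0.30, adjusted p = 0.167), which was -0.21 with its pseudogene rows added. Rpl17 was next lowest after Rps10, at -0.24 (SE 0.29, adjusted p = 0.587), with 171, 122 and 182 CPM before and 177, 110 and 116 CPM after LPS. Rpl7a, a large subunit protein, was at 151, 141 and 185, then 207, 177 and 173, then 139, 152 and 218, and then 174, 203 and 185 CPM.

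The paralogs and retrogenes stood mostly far below their parents. Of the 15, 10 were tested and 1, Rps4l, was called. Rps27 has a retrogene copy, Rps27rt, and a paralog, Rps27l, known as a target of p53. Over its 252 coding bases Rps27rt is identical to Rps27, so reads inside the coding sequence cannot be assigned to either, whereas Rps27l matches at 192 of 252 bases (76.2%). The first 120 bases of Rps27 and Rps27l are shown, with differing bases in capitals.
Rps27: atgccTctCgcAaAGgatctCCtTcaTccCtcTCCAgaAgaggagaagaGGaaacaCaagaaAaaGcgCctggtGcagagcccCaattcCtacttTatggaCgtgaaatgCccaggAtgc
Rps27l: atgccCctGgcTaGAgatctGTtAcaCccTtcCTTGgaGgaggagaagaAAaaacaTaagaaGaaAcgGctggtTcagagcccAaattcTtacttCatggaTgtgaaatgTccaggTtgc
Rps27rt was at 57.0, 39.0 and 70.7 CPM in unstimulated control, 58.2, 64.4 and 35.3 in unstimulated succinate, 97.0, 99.5 and 35.4 in LPS control and 91.9, 81.6 and 62.4 CPM in LPS succinate libraries. Rps27 was at 289, 135 and 156, then 257, 69.4 and 164, then 228, 190.4 and 167, and then 179, 199 and 280.0 CPM in the same groups. Rps27l was at 41.4, 32.8 and 35.8, then 37.0, 24.3 and 31.8, then 32.8, 38.1 and 32.5, and then 33.0, 32.0 and 41.6 CPM. None of the 3 was called. With LPS in control mice, Rps27rt had the third-highest log2 fold change of the members, at 0.48 (SE 0.33, adjusted p = 0.313).

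Rpl22l1, a paralog of Rpl22 at 252 of 387 aligned bases (65.1%), was at 33.4, 23.4 and 37.6, then 37.4, 24.6 and 35.3, then 33.0, 35.1 and 34.0, and then 50.8, 36.0 and 45.2 CPM. Its log2 fold change with LPS in succinate mice was 0.44 (SE 0.19, adjusted p = 0.0898). Rpl7l1, which works in ribosome assembly, was at 104, 89.6 and 102, then 102, 89.8 and 97.9, then 101, 104 and 113, and then 102, 111 and 110.3 CPM. In succinate mice its lowest LPS library was just above its highest unstimulated one (101.8 against 101.7 CPM), at a log2 fold change of 0.16 (SE 0.10, adjusted p = 0.264). Rpl6l matches Rpl6 at 96.8% of aligned bases and was at 55.5, 42.9 and 45.8, then 53.8, 41.1 and 50.8, then 50.9, 49.5 and 48.3, and then 56.1, 55.8 and 51.8 CPM. Rpl37rt matches Rpl37 at 99.7% and was at 26.8, 18.9 and 24.5, then 28.7, 18.3 and 26.2, then 24.9, 21.03 and 23.5, and then 26.4, 26.7 and 24.8 CPM. Like most core members, both were lowest in unstimulated succinate replicate 2. Rps3a2 matches Rps3a1 at 99.5% and was at 4.17, 5.35 and 4.49, then 4.76, 3.27 and 3.93, then 5.73, 5.32 and 4.74, and then 5.65, 5.41 and 5.004 CPM. Rps3a3 (98.9%) was at 3.76, 3.005 and 2.81, then 4.41, 2.04 and 2.28, then 2.93, 3.25 and 2.37, and then 3.77, 4.51 and 3.12 CPM. Rpl36al (87.7% to Rpl36a) was at 0.984, 1.202 and 0.749, then 1.94, 1.63 and 0.683, then 0.976, 1.36 and 0.833, and then 2.09, 1.64 and 0.969 CPM. None of these 5 was called. The remaining 5 were too low to test: Rpl3l had 69 counts over all libraries (2 to 11 in each), Rpl32l 44 (0 to 8), Rpl39l 21 (0 to 6), and Rpl10l and Rps12l1 had 0.

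Fau supplies a core protein as a fusion with a ubiquitin-like protein, and falls outside the symbol rule. Fau was at 635 ± 104 CPM before and 641 ± 27.3 after LPS in control mice (SD, n = 3 each). It was not called in any comparison. Among 77 tested mitochondrial ribosomal protein genes, which build the separate ribosome of the mitochondrion, 4 rose and 2 fell with LPS in control mice (7.8%, beside 30.1% of all genes), and 12 rose and 1 fell in succinate mice (16.9%, beside 30.2%). Mrpl52, which had the smallest p of the list in control mice, rose from 23.2 ± 2.36 to 53.5 ± 13.1 CPM in control mice (log2 fold change 1.21, SE 0.23, adjusted p = 0.000833). In succinate mice Mrpl16 had the smallest p, from 9.18 ± 2.27 to 19 ± 0.7 CPM (1.04, SE 0.20, adjusted p = 0.000904). The medians of this list were 0.02 and 0.19.

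Lists of genes that make and use ribosomes are given beside the 30.1% and 30.2% of all genes called with LPS in control and succinate mice, and no difference between lists was tested. Of 60 ribosome biogenesis genes, 6 rose and 13 fell with LPS in control mice (31.7%), and 8 rose and 7 fell in succinate mice (25%). Polr1a, the largest subunit of the polymerase that transcribes ribosomal RNA, fell from 45.5 ± 6.3 to 20.4 ± 4.02 CPM in control mice (log2 fold change -1.16, SE 0.15, adjusted p = 2.1e-05), whereas Rrs1, an assembly factor of the large subunit, rose from 29.3 ± 1.04 to 57.4 ± 6.47 CPM (0.97, SE 0.11, adjusted p = 1.12e-05). Of 39 initiation factors, 3 rose and 3 fell in control mice (15.4%) and 4 rose and 5 fell in succinate mice (23.1%). Eif2s2, a subunit of the factor that brings the initiator tRNA, rose from 148 ± 16.9 to 230 ± 2.15 CPM in control mice (log2 fold change 0.64, SE 0.12, adjusted p = 0.00071), and Eif1a, which helps the ribosome scan for the start codon, fell from 110 ± 21 to 61.9 ± 5.5 CPM (-0.83, SE 0.16, adjusted p = 0.000866). Of 7 elongation and termination factors, 1 (the release factor Gspt1, 0.31, adjusted p = 0.0205) rose in control mice and 1 (the translocation factor Eef2, -0.51, adjusted p = 0.0278) fell in succinate mice. Eef1a1, which delivers tRNA to the ribosome and carries a TOP tract, was at 7730 ± 196 before and 6530 ± 388 CPM after LPS in control mice (-0.24, SE 0.11, adjusted p = 0.106).

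Of 32 genes of mTORC1 and of the control of ribosomal protein mRNA translation, 5 rose and 8 fell with LPS in control mice (40.6%), and 3 rose and 12 fell in succinate mice (46.9%). Larp1, which binds TOP tracts, rose from 227 ± 26.4 to 321 ± 57.4 CPM in control mice (log2 fold change 0.50, SE 0.15, adjusted p = 0.0197) and was at 251 ± 47.3 and 301 ± 11.1 CPM in succinate mice (0.26, SE 0.15, adjusted p = 0.21). Deptor, an inhibitor of mTOR, fell from 14.8 ± 3.83 to 2.49 ± 0.342 CPM in control mice (-2.57, SE 0.28, adjusted p = 5.6e-06), and Mtor itself was at 74.6 ± 8.45 and 70.8 ± 2.32 CPM (-0.08, SE 0.15, adjusted p = 0.757). Myc, which drives transcription of ribosomal protein and ribosomal RNA genes, rose from 6.24 ± 0.922 to 24.5 ± 11.2 CPM in control mice (1.97, SE 0.36, adjusted p = 0.000712) and from 5.05 ± 1.25 to 30.1 ± 15.5 CPM in succinate mice (2.57, SE 0.37, adjusted p = 8.16e-05). Of 17 other mRNAs with a TOP tract, 1 rose (Nap1l1, a histone chaperone) and 1 fell (the initiation factor Eif4b) in control mice, and 2 fell in succinate mice (the initiation factor Eif3f, and Eef2). In both succinate comparisons and in the interaction, 0 genes of these lists were called in edgeR.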

How the data were processed

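Per the submitters' processing notes, the authors trimmed reads with Trim Galore and used the mm10 build; the deposited files hold whole-number read counts per gene, not normalized. No source used here names the aligner, counting tool, annotation, strand setting or handling of reads in 2 genes. Counts as deposited (54532 rows, of which 54495, 99.9%, matched GENCODE M21, GRCm38) were tested with edgeR 4.0.16 (R 4.3.3): filterByExpr (14324 genes kept), TMM scaling, a quasi-likelihood model with 1 mean per group over all 12 libraries, and Benjamini-Hochberg adjustment over all tested genes. CPM values are TMM-scaled. The median SE of a log2 fold change was 0.19 over all genes. Alternatives included DESeq2 1.42.0 and limma-voom 3.58.1. The library classes come from 4 genes that earlier results showed to split the libraries, and the fit of the larger class used the genes of the full fit. The fit was tested on simulated data.

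The members and gene lists were chosen with earlier results of these data known. Members named with all values are those called, the stalk genes, Rpsa, Rps27a, Rpl24, the tested paralogs, the extremes of level per length and of fold change in each comparison; of other lists, those with small p and a few of known role. Rpl12, Rpl14, Rpl10a, Rpl3, Rpl38, Rpl4, Rps27 and Rps4x were named beyond this rule after their values were seen. Coding length, its split, shared 50-base stretches, exon overlap, pseudogene count ratios, the TOP motif, the sequences shown and the paralog roles of Rpl32l, Rpl6l, Rps12l1 and Rpl37rt were also chosen after values were seen. Coding sequences came from 1 GENCODE transcript per gene, or the whole transcript where none is annotated; coding replaced transcript length after long untranslated ends were seen, and levels per kilobase of transcript and of the 4 genes were added later.

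Chi-square per degree of freedom between replicates was 6.42 to 38.7, so each library was kept as 1 sample. Same-numbered libraries deviated together without LPS (correlations 0.116 to 0.26 over the 3 pairs, and 6 of 6 correlated best with their own number). By this rule those groups may be paired by number, but no label pairs them and the reported test is unpaired. In both groups replicates 2 and 3 are among the libraries set apart above and replicate 1 is not. The part of that split in these correlations was not tested. With the replicate block 0 members and 0 genes were called there, as without it. The other comparisons did not meet this rule. Values of 1 core member and of 1 gene of the other lists are not reported here by name.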

Additional observations from a re-analysis of the deposited data

How the results depend on the processing

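In each comparison 24 alternatives were run, and 23 for the interaction. The number of members called with LPS in control mice, 1 in the reported analysis, was 4 without a filter (4.4%, beside 15.6% of all genes). It was 3 with the set-apart libraries as a covariate (3.4%, beside 30.1%) and 3 with length and GC trends removed (3.4%, beside 31.1%). With the replicate block it was 2 (2.3%, beside 33.2%), and without any 1 library 0 to 3 (beside 22.6% to 30.8% of all genes). The count was 0 without unstimulated control replicate 2 or LPS control replicate 2, and 3 without LPS control replicate 3. With LPS in succinate mice, 3 in the reported analysis, the number was 26 without a filter (28.6% of 91 members, beside 15.7% of all genes, against a reported 3.4% and 30.2%). Without a filter 4487 of 28563 genes were called, against 4331 of 14324 in the reported analysis. The shares of all genes with and without a filter are therefore not alike. The number of members was 14 with the replicate block (15.9%, beside 34.0%) and 6 in DESeq2 (6.8%, beside 32.1%). Without any 1 library it was 1 to 33 (beside 22.9% to 29.6% of all genes). Without a filter the number was 3 with succinate and LPS (3.3%, beside 2.43% of all genes), against a reported 0. For the interaction it was then 1 (1.1%, beside 0.25%), against a reported 0. All other alternatives of these gave 0, beside at most 337 of 14324 genes with succinate and LPS and 0.02% of all genes for the interaction. For succinate without LPS it was 0 under all 24, beside at most 0.25% of all genes. Replicate numbers did not pair the samples in the LPS comparisons or with succinate and LPS (same-number correlations -0.129 to 0.377, with 2 or 3 of 6 libraries correlating best with their own number). With pseudogene rows added, the share was 3.40% in LPS control and 4.16% in LPS succinate libraries.

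The members' median kept its sign under 24 of 24 alternatives for succinate with LPS (0.09 to 0.29) and 23 of 23 for the interaction (0.04 to 0.33), but not for LPS in control mice (-0.08 to 0.12), LPS in succinate mice (-0.02 to 0.37) or succinate without LPS (-0.15 to 0.15). Rps4l was called under 21 of 24 alternatives in control mice and 23 of 24 in succinate mice; Rps27a was called under 17 and Rpl36a under 15 of 24 in succinate mice. The following signs turned. For LPS in control mice these were Rps10 (0.15 in the larger class, 0.16 with pseudogene rows) and Rpl17 (0.11 with pseudogene rows). For LPS in succinate mice they were Rpl24 (0.047 with the covariate) and Rps10 (0.23 with pseudogene rows). For succinate without LPS, Rps29 was 0.342 without unstimulated control replicate 1 and 0.021 without unstimulated succinate replicate 2 (-0.796 to 0.342 without any 1 library), and Rpl21 was 0.13 in the larger class. With succinate and LPS, Rps19bp1 was 0.035 with library size alone, and Rpl30 was 0.007 without a filter, 0.11 with library size alone, 0.019 in the groups alone, 0.06 with pseudogene rows, 0.001 with trends removed and -0.112 to 0.07 without any 1 library. For the interaction Rpl7a was 0.009 with library size alone, 0.027 with pseudogene rows and -0.213 to 0.146 without any 1 library. The cause of these changes was not tested.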
